A study of Homo sapiens with 5 samples.

Results

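The kinesin motor genes were examined as 85 probe sets, those of 54613 non-control probe sets on the array whose annotated symbol is KIF with a number or KIFC1 to KIFC3. They belong to 41 of the 19775 genes that have a probe set of their own. The rule uses gene symbols and no signal, but the family was taken up with earlier results of these data known. The arrays came from MHH-ES-1, an established Ewing sarcoma cell line, transfected for 48 h with 50 nM of a synthetic microRNA duplex, called a mimic, by means of a lipid reagent. The mimic carried miR-483-5p (2 arrays), miR-483-3p (1 array) or a scrambled sequence that served as control (2 arrays), so all 5 arrays share the reagent and the dose. The second array of each pair is described as a repeat of the first, and no label says whether it was a separate culture, so p-values here measure the spread between arrays, which may be technical. The single miR-483-3p array is assumed to vary like the others.

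Kinesins are motor proteins that burn ATP to walk along microtubules or to take their ends apart. One set of them works in dividing cells, where it builds the spindle, moves chromosomes and completes cytokinesis, and its transcripts rise toward mitosis. Another set carries vesicles, mitochondria, RNA and ciliary cargo and is used throughout interphase, above all in neurons. In a proliferating tumour line such as MHH-ES-1 both sets can be transcribed. Of the 41 genes, 13 were placed among the mitotic kinesins, 17 among the transport kinesins and 11 in neither group, the last including KIF2A, which acts both at spindle poles and in axons.

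The cells showed the transcripts that mark Ewing sarcoma. All 8 markers examined, among them CD99, NKX2-2 and STEAP1, passed the filter on dim genes, a mean signal of 27.2, on a linear scale of arbitrary units. Of 7 markers of other cell types, PECAM1 and DES passed it and 5 did not. Median signals of the arrays lay between 39.2 and 44.9. As a sign of RNA integrity the 3' GAPDH probe set was divided by the 5' one, which gave 1.09 and 1.1 under miR-483-5p, 1.02 and 0.996 in control arrays and 1.06 under miR-483-3p. The same ratio of ACTB was 1.18 and 1.07 under miR-483-5p, 1.07 and 1.04 in control arrays and 1.09 under miR-483-3p. The GAPDH ratio thus separated mimic from control arrays, the ACTB ratio nearly so, and their part in the differences given here was not tested.

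Of the 85 probe sets, 65 passed the filter, and of the 41 genes 33 had at least one that did. Each gene is given by its probe set of highest mean over the 5 arrays. The 8 genes under the filter were the mitotic KIF2B, the transport genes KIF5C, KIF17, KIF21A and KIF21B, and KIF7, KIF24 and KIF27. Their 11 probe sets had signals of 0.9 to 34.2, with no known distance from background. KIF4B, also a mitotic kinesin, has no probe set of its own here. The 12 mitotic genes that passed had signals of at least 164.6 on every array, so none of them passed through a single group. Signals of different probe sets cannot be set against each other as amounts of RNA, so levels are compared between arrays alone.

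The mitotic kinesins were higher with both mimics than in the control, apart from a few members, whereas the medians of the transport kinesins lay near that of all genes. With miR-483-5p, 10 of the 12 mitotic genes were higher than the control, with a median difference of 0.33 in log2(signal + 32), the scale of all differences given here. Of the 13 transport genes 10 were also higher with miR-483-5p, but with a median of 0.08. All 14591 genes tested had a median of -0.01. With miR-483-3p all 12 mitotic genes and 5 of the 13 transport genes were higher. The medians were 0.24 for mitotic kinesins, -0.08 for transport kinesins and -0.00 for all genes. Of all genes tested, 48.5% were higher with miR-483-5p and 49.8% with miR-483-3p. The spindle motors KIFC1 and KIF11 differed most, and KIF4A was the mitotic gene furthest below the control with miR-483-5p. No kinesin passed limma's test in any comparison after Benjamini-Hochberg adjustment over all genes, and no other gene did either (0 of 14591, 0%), so the differences are given as values. In 773 and 790 genes the unadjusted p was under 0.05 with miR-483-5p, higher and lower, and the adjusted test called 37, 33 and 39 genes under 3 of the alternative settings, at most 1 under any other.

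**Figure D1:**
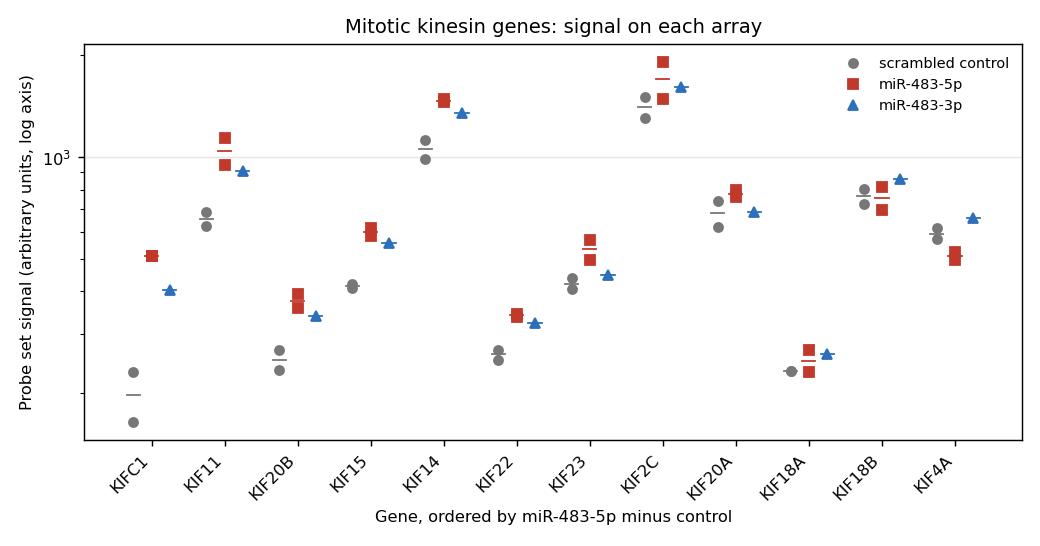
Signal of each mitotic kinesin gene on each array (log axis, arbitrary units), with circles for the scrambled control, squares for miR-483-5p and a triangle for miR-483-3p. Short lines mark the mean of each group. In 7 of the 12 genes all 3 mimic arrays lie above both control arrays, and in KIF4A the miR-483-5p arrays lie below them.

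Motors that set up the spindle came first. KIFC1 is a minus-end motor that bundles and focuses spindle microtubules and clusters extra centrosomes. Its signals were 509 and 507 under miR-483-5p, 165 and 231 in control arrays and 404 under miR-483-3p. All 3 mimic arrays lay far above both controls, although the controls themselves were spread. The difference was 1.25 (SE 0.18, limma adjusted p = 0.226) with miR-483-5p and 0.94 (SE 0.22, adjusted p = 0.512) with miR-483-3p. This gene alone among the kinesins was called under other settings, namely with each array centred on its median (adjusted p = 0.0119), a pseudocount of 100 (adjusted p = 0.0157) or a variance prior that follows intensity (adjusted p = 0.0108), and its adjusted p ran from 0.0108 to 0.52 over all alternatives.

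KIF11, the motor that pushes spindle poles apart, had signals of 1137 and 949 under miR-483-5p, 688 and 626 in control arrays and 909 under miR-483-3p. KIF15, which can take over from KIF11 in keeping the spindle bipolar, had 617 and 582 under miR-483-5p, 421 and 408 in control arrays and 556 under miR-483-3p. The groups did not overlap in either gene, and the single miR-483-3p array stood between the control and the miR-483-5p arrays in both. KIF11 was 1.56-fold higher with miR-483-5p (log2 difference 0.64, SE 0.16, limma adjusted p = 0.332) and 1.37-fold higher with miR-483-3p (0.45, SE 0.19). KIF15 was 1.41-fold higher with miR-483-5p (0.50, SE 0.14, limma adjusted p = 0.344) and 1.32-fold higher with miR-483-3p (0.40, SE 0.17). The added 32 makes folds of dim probe sets smaller than those of the signals themselves.

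Motors that act on chromosomes and microtubule ends differed less evenly. KIF22, which pushes chromosome arms away from the poles, had 343 and 336 under miR-483-5p, 251 and 269 in control arrays and 322 under miR-483-3p. All mimic arrays were above both controls, and a second probe set gave differences of 0.26 and 0.22 beside 0.35 and 0.28 in the first. KIF2C, a kinesin that disassembles microtubule ends at kinetochores and corrects wrong attachments, had 1907 and 1482 under miR-483-5p, 1298 and 1502 in control arrays and 1612 under miR-483-3p. By this probe set its groups overlapped, with the second miR-483-5p array just under the second control. The difference of 0.26 (SE 0.18) shrank to 0.08 once the brighter miR-483-5p array was left out. A dimmer KIF2C probe set had 1150.8 and 948 under miR-483-5p and 789.4 and 897.7 in control arrays. It put all mimic arrays above both controls, by 0.30 with miR-483-5p and 0.32 with miR-483-3p.

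KIF18A, which dampens chromosome movements at the spindle equator, had 231 and 268 under miR-483-5p, 232 and 232 in control arrays and 262 under miR-483-3p. KIF18B, which works on the astral microtubules, had 814 and 697 under miR-483-5p, 805 and 727 in control arrays and 858 under miR-483-3p. For both genes the miR-483-5p arrays spanned the controls and only the miR-483-3p array lay above them. The differences with miR-483-5p were 0.09 (SE 0.15) and -0.02 (SE 0.15), and that of KIF18B turned to 0.01 when each array was centred on its median.

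KIF4A binds chromosomes and, with PRC1, sets the length of the central spindle. It had 523 and 494 under miR-483-5p, 570 and 615 in control arrays and 659 under miR-483-3p. The order was thus miR-483-5p lowest, control between and miR-483-3p highest, with no overlap between neighbours. It was lower by 0.21 with miR-483-5p (log2 difference -0.21, SE 0.14, limma adjusted p = 0.637) and higher by 0.15 (SE 0.17) with miR-483-3p, and the direct difference between the arms was -0.36 (SE 0.17, adjusted p = 0.790). Among the 12 mitotic kinesins it was the only one in which both miR-483-5p arrays lay below both controls.

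Motors of cytokinesis formed the last set. KIF14, which recruits citron kinase to the midbody, had 1484 and 1450 under miR-483-5p, 982 and 1120 in control arrays and 1351 under miR-483-3p. Both of its probe sets separated all mimic arrays from the controls, with differences of 0.47 and 0.51 for miR-483-5p and of 0.35 and 0.45 for miR-483-3p. KIF20B, which acts late in abscission, had 394 and 356 under miR-483-5p, 234 and 268 in control arrays and 337 under miR-483-3p. Its arrays did not overlap, but a dimmer probe set gave -0.07 with miR-483-5p, and another, under the filter, gave -0.04. The mean over all of its probe sets thus differed by 0.14 where the brightest differed by 0.53.

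KIF23, the motor subunit of the centralspindlin complex, had 569 and 495 under miR-483-5p, 407 and 437 in control arrays and 446 under miR-483-3p. All mimic arrays were above both controls, the miR-483-3p array by little, with differences of 0.31 (SE 0.15) and 0.08 (SE 0.18). Its second probe set gave 0.50 and 0.19. KIF20A, which brings the chromosomal passenger complex to the central spindle, had 795 and 762 under miR-483-5p, 619 and 740 in control arrays and 687 under miR-483-3p. The miR-483-5p arrays lay just above the controls and the miR-483-3p array lay between them.

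In counts, the pair of miR-483-5p arrays exceeded the pair of controls in 8 of the 12 mitotic genes and lay under it in 1, where all genes tested gave 20.3% above and 22.2% below. At an unadjusted p under 0.05 in limma, 6 of the 12 were higher, namely KIFC1, KIF11, KIF15, KIF20B, KIF14 and KIF22, and none was lower, where 5.3% and 5.41% of all genes were (773 and 790 genes). The single miR-483-3p array lay above both controls in 11 of the 12 and below them in none, beside 33.4% and 35.4% of all genes. By the unadjusted p, KIFC1 alone was higher with miR-483-3p, where 2.51% of all genes were. Both comparisons use the same control arrays and are not independent of each other. All 3 mimic arrays were above both controls in 7 mitotic genes (KIF11, KIF14, KIF15, KIF20B, KIF22, KIF23 and KIFC1), and in 13% of all genes. Over all alternatives the mitotic median stayed between 0.28 and 0.42 with miR-483-5p and between 0.20 and 0.31 with miR-483-3p.

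**Figure D2:**
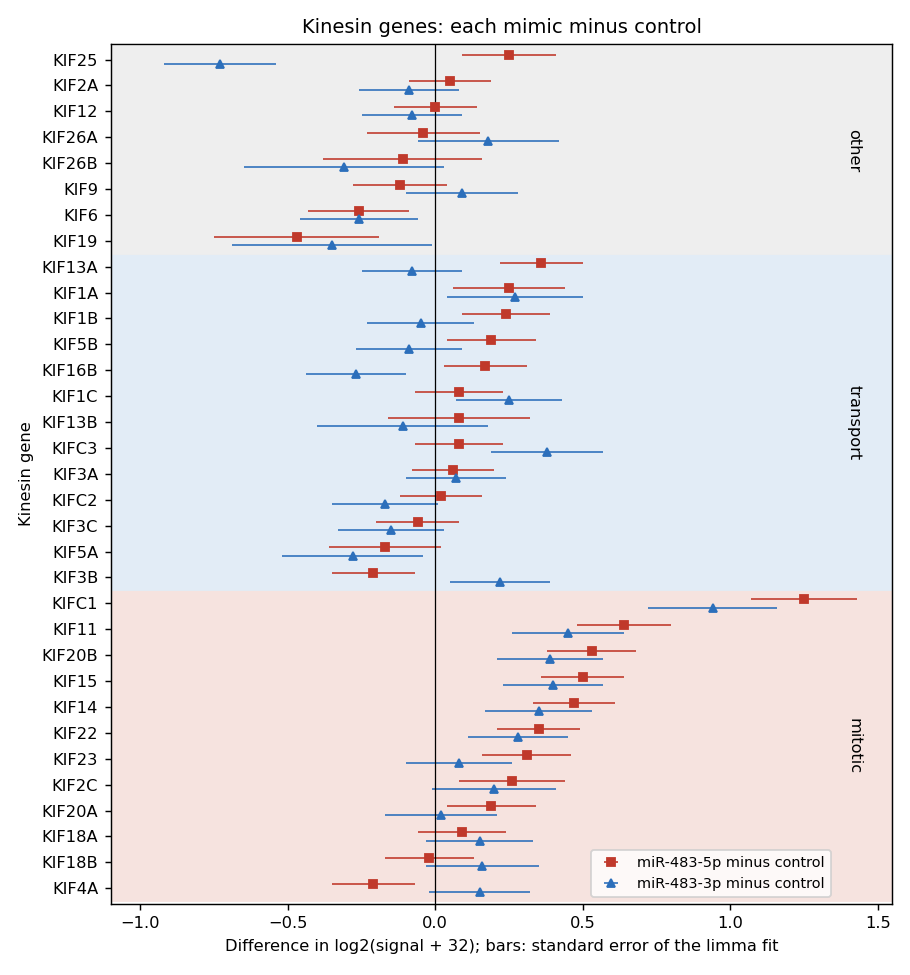
Difference in log2(signal + 32) between each mimic and the control for the 33 kinesin genes over the filter, with squares for miR-483-5p, triangles for miR-483-3p and bars for the standard error of the limma fit. Shading marks mitotic, transport and other kinesins. Mitotic genes run from -0.21 for KIF4A to 1.25 for KIFC1 with miR-483-5p, and transport genes from -0.21 to 0.36.

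The start regions of these genes are given as a description. Transcription of many mitotic genes is held down outside G2 and M phase through a short element near the start site, the cell cycle genes homology region, often with CCAAT boxes upstream that bind NF-Y. The words TTTGAA and TTCGAA stand for the first element here and CCAAT for the second, each searched on both strands in the 250 bases before the start of a gene in RefSeq (GRCh38.p14). Of 41 kinesin genes, 33 matched the promoter table, which holds 27305 genes, and the first window listed was used for each. CCAAT was found in 10 of 13 mitotic windows (76.9%), 3 of 12 transport windows (25%) and 33% of all windows. TTTGAA or TTCGAA was found in 6 of 13 mitotic windows (46.2%), 1 of 12 transport windows (8.33%) and 14.6% of all windows. Both lay in 5 of 13 mitotic windows (38.5%) and in 5.24% of all. Of the 7 mitotic genes with all mimic arrays above both controls, 6 held CCAAT (85.7%), 4 held TTTGAA or TTCGAA (57.1%) and 3 held both (42.9%). The mitotic class that includes them had 76.9%, 46.2% and 38.5%. Outside the 7, KIF18A held both elements, and KIF18B and KIF20A held CCAAT. A link between these matches and the differences in signal was not tested.

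The last 150 bases before the start are printed for 4 of the 7 mitotic genes in which all mimic arrays exceeded the controls. KIF4A, which is not among the 7, and the transport gene KIF5B are added. Sequences run 5′ to 3′ along the gene, with capitals marking matches on either strand. Of the 7, KIF14, KIF15 and KIF20B are not printed. KIF14 and KIF20B hold no TTTGAA or TTCGAA, and KIF15 holds no CCAAT. The windows are chr6:33391673-33391822 (plus strand) for KIFC1, chr10:92592980-92593129 (plus) for KIF11, chr16:29790601-29790750 (plus) for KIF22, chr15:69414199-69414348 (plus) for KIF23, chrX:70289954-70290103 (plus) for KIF4A and chr10:32056426-32056575 (minus) for KIF5B.
KIFC1: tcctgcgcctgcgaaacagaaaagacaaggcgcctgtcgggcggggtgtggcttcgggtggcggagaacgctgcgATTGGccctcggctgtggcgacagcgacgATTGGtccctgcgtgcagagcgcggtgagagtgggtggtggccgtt
KIF11: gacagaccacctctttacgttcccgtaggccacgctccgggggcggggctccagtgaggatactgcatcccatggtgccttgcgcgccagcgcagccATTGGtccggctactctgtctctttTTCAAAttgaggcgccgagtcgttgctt
KIF22: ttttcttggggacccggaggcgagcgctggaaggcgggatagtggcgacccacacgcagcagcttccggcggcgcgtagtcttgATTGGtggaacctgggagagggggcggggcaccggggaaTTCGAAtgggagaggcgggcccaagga
KIF23: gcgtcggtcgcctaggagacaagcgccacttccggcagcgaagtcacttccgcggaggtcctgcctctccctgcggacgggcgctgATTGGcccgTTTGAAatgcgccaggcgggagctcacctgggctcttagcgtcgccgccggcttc
KIF4A: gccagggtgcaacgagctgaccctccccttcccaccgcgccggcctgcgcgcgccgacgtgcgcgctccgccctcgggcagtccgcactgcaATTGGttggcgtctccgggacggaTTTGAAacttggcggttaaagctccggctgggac
KIF5B: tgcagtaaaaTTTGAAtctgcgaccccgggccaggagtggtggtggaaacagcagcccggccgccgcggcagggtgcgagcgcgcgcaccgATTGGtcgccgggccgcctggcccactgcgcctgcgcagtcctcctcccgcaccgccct
KIFC1, the gene with the largest difference, holds a pair of CCAAT matches, which begin 75 and 46 bases before the start, and neither TTTGAA nor TTCGAA. KIF11 and KIF22 hold a CCAAT match 53 and 66 bases before the start and the other element 28 and 27 bases before it. KIF4A has the same arrangement, at 58 and 34 bases, and KIF23 has both close together, at 64 and 55 bases. In KIF5B the TTTGAA match lies further out, 140 bases before the start. A match describes these letters and does not show that a factor binds there.

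Genes that work with the mitotic kinesins were higher as well. Of 18 partners and markers of dividing cells listed, 17 had a probe set and passed the filter. With miR-483-5p 15 of them were higher, at a median of 0.33, and both miR-483-5p arrays exceeded both controls in 13, where 20.3% of all genes did. With miR-483-3p all 17 were higher, at a median of 0.23, and the array lay above both controls in all 17, where 33.4% of all genes did. All 3 mimic arrays were above both controls in 13 of the 17 and in 13% of all genes.

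CENPE, the kinesin that carries chromosomes along the spindle but bears no KIF symbol, had 388 and 368 under miR-483-5p, 233 and 226 in control arrays and 269 under miR-483-3p. ECT2, the exchange factor that centralspindlin recruits, had 1671 and 1582 under miR-483-5p, 1137 and 1126 in control arrays and 1428 under miR-483-3p. Both genes had miR-483-5p arrays above the miR-483-3p array and that array above the controls. For ECT2 the mean over all probe sets gave 0.21 with miR-483-5p in place of 0.51, and 0.13 with miR-483-3p in place of 0.33.

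BIRC5, a member of the chromosomal passenger complex, had 2869 and 2479 under miR-483-5p, 1769 and 2059 in control arrays and 2470 under miR-483-3p. MKI67, the proliferation marker, had 501 and 574 under miR-483-5p, 386 and 402 in control arrays and 610 under miR-483-3p. With the mean over its probe sets BIRC5 differed by 0.33 and 0.17 in place of 0.48 and 0.37. MKI67 was the gene of this list furthest above the control with miR-483-3p, by 0.59 (SE 0.18, limma adjusted p = 0.638). TPX2, which targets KIF11 and KIF15 to the spindle, followed KIF4A in lying below the control with miR-483-5p (-0.15, SE 0.14) and above it with miR-483-3p (0.21, SE 0.17). In RNA of whole cultures a larger share of dividing cells and more RNA per dividing cell cannot be told apart, and the arrays hold no count of cells in each phase.

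The transport kinesins differed in both directions, with most of them higher with miR-483-5p and most lower with miR-483-3p. With miR-483-5p, 10 of the 13 genes over the filter were higher and 3 lower, between -0.21 and 0.36. Of all genes 48.5% were higher. The miR-483-5p pair exceeded the control pair in 5 of 13, where 20.3% of all genes did, and lay under it in 1, where 22.2% did. KIF13A alone of the 13 had an unadjusted p under 0.05 in limma, and was higher. Of all genes 5.3% were higher and 5.41% lower by that measure, so this count too lies near the background. With miR-483-3p 5 were higher and 8 lower, and the array lay above both controls in 5 and below them in 6, where 33.4% and 35.4% of all genes did. KIF3A was the single transport gene of 13 with all 3 mimic arrays above both controls, as in 13% of all genes, so that this count lies near the background.

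**Figure D3:**
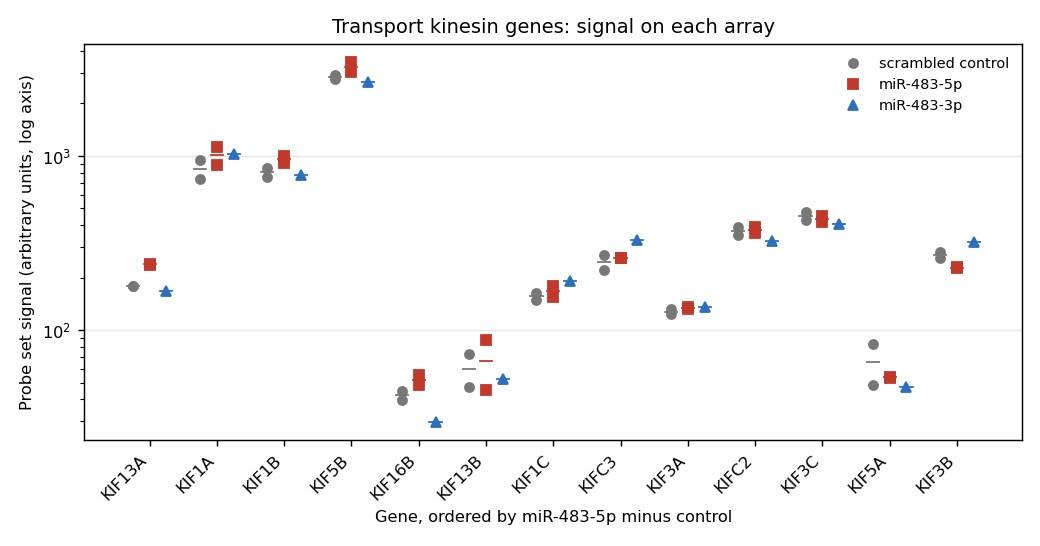
Signal of each transport kinesin gene on each array (log axis, arbitrary units), with circles for the scrambled control, squares for miR-483-5p and a triangle for miR-483-3p, and short lines for group means. Most groups overlap or lie close together. In KIF13A both miR-483-5p arrays, at 235 and 241, stand above the other 3 arrays, at 168 to 180.

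KIF5B, the ubiquitous conventional kinesin heavy chain, had 3456 and 3036 under miR-483-5p, 2912 and 2754 in control arrays and 2652 under miR-483-3p. The miR-483-5p arrays were above the controls and the miR-483-3p array was below them, by 0.19 (SE 0.15) and -0.09 (SE 0.18). Its other probe sets gave 0.27 and 0.08 with miR-483-5p. KIF13A, which moves endosomes and melanosome cargo, had 235 and 241 under miR-483-5p, 178 and 180 in control arrays and 168 under miR-483-3p. The difference of 0.36 with miR-483-5p (SE 0.14, limma adjusted p = 0.432) rests on 1 probe set, since the other 3 over the filter gave -0.15 to 0.17. The mean over all of the gene's probe sets, with those under the filter, differed by 0.05.

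KIF1A, a carrier of synaptic vesicle precursors best known from neurons, had 1121 and 889 under miR-483-5p, 736 and 950 in control arrays and 1018 under miR-483-3p. KIF1B, which moves mitochondria and vesicles, had 1000.5 and 912 under miR-483-5p, 758 and 855 in control arrays and 775 under miR-483-3p. The arrays of KIF1A overlapped, and those of KIF1B set miR-483-5p above the control. In both genes dimmer probe sets went the other way with miR-483-5p, 1 at -0.28 for KIF1A and 2 at -0.11 and -0.32 for KIF1B, beside 0.25 and 0.24 for the brightest. A further KIF1B probe set, nearly as bright as the first, gave 0.19 without overlap. The mean over the probe sets was -0.01 for KIF1A and -0.00 for KIF1B.

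The kinesin-2 motors, which serve cilia and axons, did not share a direction. KIF3B had 231 and 226 under miR-483-5p, 280 and 260 in control arrays and 319 under miR-483-3p. Both of its probe sets put miR-483-5p below and miR-483-3p above the controls without overlap, with differences of -0.21 and -0.22 for miR-483-5p and of 0.22 and 0.13 for miR-483-3p. KIF3A, its dimer partner, had 132 and 135 under miR-483-5p, 132 and 123.2 in control arrays and 136 under miR-483-3p. Its differences of 0.06 and 0.07 were within 1 SE of 0, and its dimmer probe set gave -0.46 and -0.22. KIF3C had 419 and 450 under miR-483-5p, 431 and 477 in control arrays and 405 under miR-483-3p. It overlapped between miR-483-5p and the control. A dimmer KIF3C probe set put all mimic arrays above both controls, by 0.23 with miR-483-5p and 0.20 with miR-483-3p. KIF3B was singled out after its values were seen.

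The minus-end motors KIFC2 and KIFC3 lay close to the control with miR-483-5p, at 0.02 and 0.08 (SE 0.14 and 0.15). Their dimmer probe sets gave -0.21 and 0.37 with miR-483-5p, each without overlap. KIFC2 had 390 and 361 under miR-483-5p, 391.8 and 349 in control arrays and 326 under miR-483-3p. KIFC3, which acts at cell junctions, had 258 and 261 under miR-483-5p, 220 and 271 in control arrays and 328 under miR-483-3p. KIFC3 was thus highest on the miR-483-3p array, by 0.38 (SE 0.19, limma adjusted p = 0.827), while a dimmer probe set gave -0.04 and the mean of both 0.17. The other transport genes, KIF1C, KIF5A and KIF13B, overlapped with the control with miR-483-5p, at differences of 0.08, -0.17 and 0.08. With miR-483-3p the 2 KIF1C probe sets over the filter, of mean signal 167.5 and 167.3, gave 0.25 and -0.50.

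Adaptors and regulators of transport kinesins were evenly divided. Of 17 listed, 16 passed the filter, and 8 were higher and 8 lower with miR-483-5p, with 6 above and 6 below the controls without overlap, beside 20.3% and 22.2% of all genes. With miR-483-3p 7 were higher and 9 lower. TRAK2, which links kinesin to mitochondria, had 707 and 623 under miR-483-5p, 454 and 488 in control arrays and 563 under miR-483-3p. PLEKHM2, which couples kinesin to lysosomes, had 197 and 147 under miR-483-5p, 224 and 249 in control arrays and 206 under miR-483-3p. The outer mitochondrial GTPase genes RHOT1 and RHOT2 lay on opposite sides of the control, RHOT1 below it by -0.20 and -0.35 and RHOT2 above it by 0.31 and 0.28 with miR-483-5p and miR-483-3p. With miR-483-5p the mean over all probe sets differed by -0.03 for RHOT1 and 0.13 for RHOT2.

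Among the other kinesins, none was higher at an unadjusted p under 0.05 with either mimic, where 5.3% (miR-483-5p) and 2.51% (miR-483-3p) of all genes were. KIF2A had 909 and 903 under miR-483-5p, 911 and 842 in control arrays and 819 under miR-483-3p, and its groups overlapped with miR-483-5p. By the probe set that stands for each gene, KIF25 was the single kinesin lower with miR-483-3p at an unadjusted p under 0.05, where 4.05% of all genes were. It had 44.1 and 40.6 under miR-483-5p, 37 and 24.9 in control arrays and 5.8 under miR-483-3p, while its other probe set, under the filter, reached 46.8 under miR-483-3p beside control values of 19.1 and 3.4. These signals are dim and go opposite ways. The remaining genes of this group over the filter, KIF9, KIF12 and KIF26B, overlapped with the control with miR-483-5p, at differences of -0.12, 0.00 and -0.11. A dimmer KIF26B probe set had 8 under miR-483-3p beside 43.5 and 60.1 in control arrays, a difference of -1.06. The other KIF26B probe sets gave -0.31 and -0.15 with miR-483-3p.

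KIF6 had 46.4 and 56.3 under miR-483-5p, 78.6 and 57.4 in control arrays and 51.2 under miR-483-3p, and was the single kinesin with all mimic arrays below both controls, as in 14% of all genes. Its other probe sets over the filter ranged from -0.24 to 0.18 with miR-483-5p. KIF19, a kinesin of motile cilia, had 57 and 15.8 under miR-483-5p, 63.9 and 53.1 in control arrays and 39 under miR-483-3p. Without the second miR-483-5p array its difference from the control was -0.02 in place of -0.47. KIF26A had 80.8 and 130 under miR-483-5p, 106 and 108 in control arrays and 125 under miR-483-3p, and its second probe set gave 0.47 with miR-483-5p where the first gave -0.04.

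Set side by side by array, the classes differed in how far they stood from the control. The median mitotic gene lay 0.42 and 0.28 above the control mean on the miR-483-5p arrays and 0.24 above it on the miR-483-3p array, while the control arrays lay at -0.05 and 0.05. The median transport gene lay at 0.07 and 0.08 on the miR-483-5p arrays, at -0.01 and 0.01 on the controls and at -0.08 on the miR-483-3p array. All 3 mimic arrays lay above both controls in the mitotic median, and the miR-483-5p arrays alone did so in the transport median. The members were taken with earlier results of these data known, so the difference between classes carries no p-value. The GAPDH ratio divided the arrays in the same way.

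**Figure D4:**
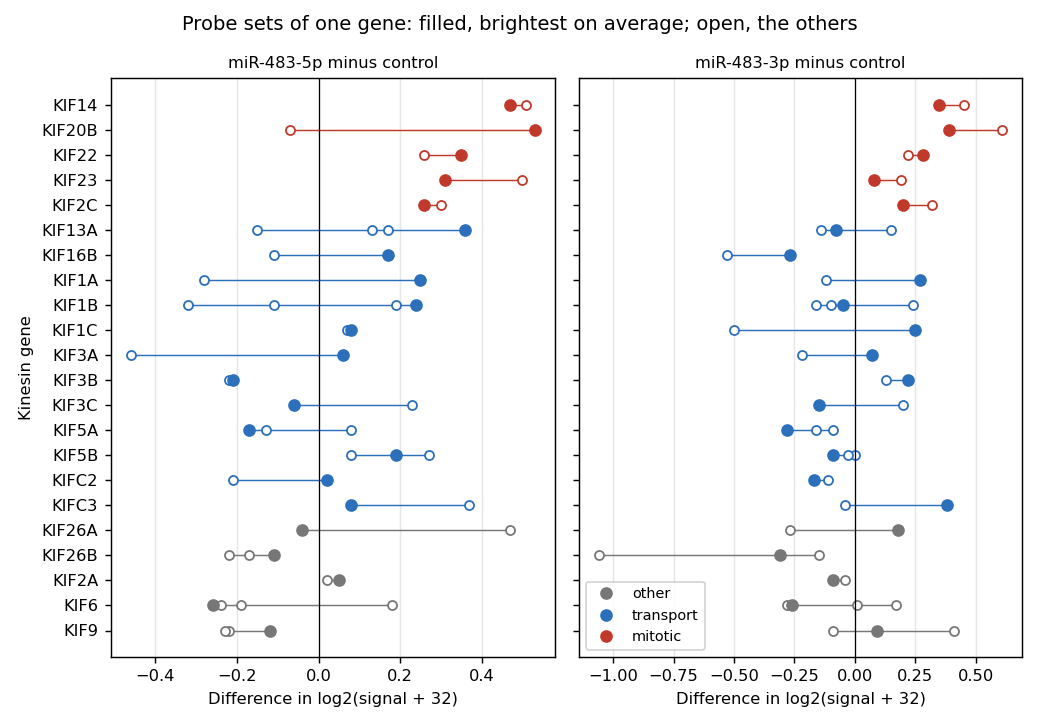
Difference in log2(signal + 32) of every probe set over the filter for the 22 kinesin genes with more than 1, miR-483-5p minus control on the left and miR-483-3p minus control on the right, on different scales. Filled points are the probe set that stands for the gene. Probe sets share a sign in 4 of 5 mitotic genes and 4 of 12 transport genes on the left.

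Several probe sets of one gene allowed a check within the array. Among mitotic genes with more than 1 probe set over the filter, all probe sets had the same sign in 4 of 5 genes with miR-483-5p and in 5 of 5 with miR-483-3p. Among transport genes this held in 4 of 12 with either mimic. Counted by probe set, 14 of 17 mitotic ones were higher with miR-483-5p and 17 of 17 with miR-483-3p, and 19 and 10 of 31 transport ones. Of all 32768 probe sets over the filter, 46.8% and 48.9% were higher. Probe sets of one gene share the same arrays, so they are not independent of each other. How often they share a sign over all genes was not counted. Whether the probe sets of a gene differ from each other was not tested.

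Between the arms the class medians were alike. The median of miR-483-5p minus miR-483-3p was 0.11 for the 12 mitotic and 0.11 for the 13 transport genes, and 0.00 for all genes. The miR-483-5p arrays were both above the miR-483-3p array in 8 mitotic and 7 transport genes, where 34.4% of all genes were, and both below it in 2 and 4, where 33.5% were. At an unadjusted p under 0.05, KIF13A and KIF16B were higher with miR-483-5p, by 0.43 and 0.44, as was the dim KIF25, and KIF3B was lower, at -0.43. Of all genes 3.41% were higher and 3.24% lower by that measure. With the mean over its probe sets KIF13A differed by 0.07. KIF16B is an endosomal motor with 55.5 and 48.3 under miR-483-5p, 44.8 and 39.9 in control arrays and 29.8 under miR-483-3p. The lowest adjusted p among kinesins here was 0.564 in limma, for KIF25. A test that misses the threshold with 2 arrays against 1 does not show that the arms act alike.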

How the data were processed

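Per the labels' protocols, RNA of MHH-ES-1 cells was hybridised to Affymetrix HG-U133 Plus 2 arrays. The values deposited by the authors are linear probe set intensity. With 2% of values trimmed from either end, every column averages 150, a common scale set before deposit. Per the submitters' processing notes, GCOS and Partek were used, with no version or role. The algorithm behind the signals remains unknown, as not given in the sources used here, and detection calls were not used. Symbols came from the platform annotation and were updated through RefSeq gene identifiers (41037 of 41091 probe sets with 1 symbol).

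For a gene with several probe sets, the one of highest mean stood for it. The 14591 genes tested had a mean of at least 27.2, the 40th percentile over probe sets. The limma package 3.58.1 (R 4.3.3) fitted group means to log2(signal + 32) of all 5 arrays, with 2 residual and 4.96 prior degrees of freedom, two-sided tests and Benjamini-Hochberg adjustment at 0.05. The fit was tested on simulated data. The miR-483-3p array adds no residual degree of freedom. The number of arrays limits the precision.

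The members, the class lists, the partner lists and the tests were chosen with earlier results of these data known. Every kinesin was counted. Values per array are given for all mitotic kinesins over the filter, the 6 transport kinesins of highest mean signal, the 3 transport and 3 other kinesins of lowest p against the control, those whose probe sets over the filter differ in sign by over 0.5 with miR-483-5p, and the 4 lowest p of each partner list. KIF2A, KIF3B, KIF16B and TPX2 were added after their values were seen. Alternatives changed the normalization (median centring or quantile), the filter (none or the 60th percentile), the pseudocount (1 or 100), the summary of probe sets (their mean, or each one tested singly), the variance prior (an intensity trend), the arrays (groups compared alone, or each paired array left out) and the class of KIF2A. Promoter windows came from RefSeq (GRCh38.p14). Figures were drawn with matplotlib 3.10.9.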

Additional observations from a re-analysis of the deposited data

How the results depend on the processing

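Mitotic medians moved by less than their array spread in all 3 comparisons, and mitotic counts above the control stayed within 1.5 times with either mimic, under every alternative run. The 7 mitotic genes above the control on all mimic arrays never changed sign against it. By how the 7 were picked, the sign was fixed in advance with an array left out. It was also fixed with another filter, another variance prior, probe sets tested singly or the groups compared alone. Another pseudocount could change it only by bringing in another probe set. Of 203 class values under alternatives 174 stayed and 29 moved, those of the mitotic class being counts below the control. Many of the 203 could not move, since the variance prior and the groups compared alone leave medians and counts as they are. An array left out alters only the comparisons that use it. A median counted as moved beyond the array spread of its own class. In the order miR-483-5p and miR-483-3p against control and miR-483-5p against miR-483-3p, that spread was 0.12, 0.09 and 0.08 for mitotic kinesins. It was 0.04, 0.01 and 0.03 for transport kinesins, so these numbers do not compare how steady the classes were.

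For transport kinesins with miR-483-5p the median of 0.08 became 0.03 with the mean over probe sets, and 0.07 to 0.13 when an array was left out. The count above the control, 5, became 3 with that mean, 9 with every probe set counted on its own and 6 to 8 with an array left out, and the count below, 1, became 2, 6 and 1 to 4. With miR-483-3p the transport median of -0.08 became -0.04 with median centring, -0.05 without a filter, 0.01 with the 60th percentile filter, -0.09 and -0.06 with pseudocounts of 1 and 100, -0.02 with the mean of probe sets, -0.09 by probe set and -0.08 to 0.03 with an array left out. Its counts of 5 above and 6 below became 3 above with the mean of probe sets, and 8 above and 14 below by probe set. Between the arms the transport median of 0.11 became 0.04 with the stricter filter, 0.18 with a pseudocount of 1 and 0.06 with the mean of probe sets. Counts by probe set are larger since more features are counted. Mitotic genes below the control numbered 1 to 2 with miR-483-5p when an array was left out. With miR-483-3p that count was 1 without a filter, 1 with KIF2A as mitotic, and 0 to 1 with an array left out.

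Of 1452 values of named genes under alternatives 29 changed sign, none of them over 0.35 in size by the main setting. Many of the 1452 could not change, since the filter, the variance prior and the groups compared alone leave a difference as it is. An array left out alters only the comparisons that use it. With the mean over probe sets 12 values changed sign. Against the control with miR-483-5p these were KIF1A at -0.01, KIFC2 at -0.10, KIF3A at -0.20, KIF3C at 0.09 and KIF26A at 0.21. With miR-483-3p they were KIF26A at -0.05, KIF3A at -0.07, KIF3C at 0.03 and KIF19 at 0.05. Between the arms they were KIF20B at -0.17, KIFC3 at 0.05 and KIF26A at 0.26. Median centring turned KIF18B to 0.01. Leaving out an array turned signs against the control with miR-483-5p for KIF18A (-0.01 to 0.18), KIF18B (-0.13 to 0.09), KIF26A (-0.30 to 0.22), KIF3C (-0.13 to 0.01), KIFC2 (-0.06 to 0.10), KIFC3 (-0.05 to 0.21) and KIF2A (-0.01 to 0.10), with miR-483-3p for KIF1B (-0.14 to 0.03) and KIF20A (-0.10 to 0.14), and between the arms for KIF18A (-0.16 to 0.03), KIF19 (-0.57 to 0.33), KIF1A (-0.19 to 0.13), KIF26A (-0.48 to 0.04) and KIF2C (-0.12 to 0.24). The cause was not tested. With an array left out, a lone array is assumed to vary like the other groups, and miR-483-3p against 1 control array draws its spread from the miR-483-5p pair alone. No paired analysis was possible because the labels give the groups no shared replicate numbers, and the numbers used here only name the arrays.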

Other observations

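Cytoplasmic dynein, the motor that walks opposite to most kinesins, and its activator dynactin were read as a further list. Of 21 genes listed, 19 had a probe set and all 19 passed the filter. With miR-483-5p 15 were higher than the control and 4 lower, with a median of 0.08 in log2(signal + 32), 6 above and 1 below without overlap, beside 20.3% and 22.2% of all genes. With miR-483-3p 9 were higher and 10 lower. All 3 mimic arrays lay above both controls in 4, namely DYNC1H1, DYNC1LI2, DYNLL2 and DCTN3, which is 4 of 19 beside 13% of all genes. No gene of the list passed limma's adjusted test.

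DYNC1LI2, a light intermediate chain that binds cargo adaptors, had signals of 1272 and 1050 under miR-483-5p, 713 and 800 in control arrays and 1068 under miR-483-3p. DYNLL2, a light chain, had 776 and 603 under miR-483-5p, 415 and 445 in control arrays and 618 under miR-483-3p, although the mean of its probe sets gave 0.16 in place of 0.63 with miR-483-5p and 0.17 in place of 0.49 with miR-483-3p. DYNC1H1, the heavy chain, had 729 and 612 under miR-483-5p, 519 and 524 in control arrays and 687 under miR-483-3p, and the mean of its probe sets gave 0.12 in place of 0.34 and 0.17 in place of 0.38. DCTN2, the dynamitin subunit of dynactin, had 765 and 622 under miR-483-5p, 882 and 890 in control arrays and 988 under miR-483-3p. It thus had the same order of groups as KIF4A and KIF3B, with miR-483-5p lowest and miR-483-3p highest, and the mean of its probe sets gave -0.10 in place of -0.35 with miR-483-5p.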
